A study of Homo sapiens with 7 samples.

Results

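KM-H2 and L-428 are Hodgkin lymphoma (HL) cell lines known for mutations that damage NFKBIA, the gene for the inhibitor IkBα. These 2 of the 7 HL cell lines profiled were chosen for that background knowledge and were set against HDLM-2, L-1236, L-540, SUP-HD1 and U-HO1. RNA of each line was hybridised to 1 expression array, so lines serve as the replicates of their group, and p-values measure the spread between lines and not between cultures. Neither the labels nor the arrays give the genotype of NFKBIA, and no treatment is recorded for any line. HDLM-2 and L-540 are known as T-cell-derived, while the other lines descend from B-cells, and each line descends from a single patient. The arrays came from a pair of laboratories that the labels do not assign to lines, so laboratory and line cannot be told apart. The cell line label of the HDLM-2 array is spelled HDML-2.

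NFkB is a family of dimeric transcription factors that wait in the cytoplasm, held there by IkB proteins. When the IKK kinase complex phosphorylates IkBα, the inhibitor is degraded, and the freed dimers enter the nucleus and activate survival, chemokine and activation genes. NFKBIA is itself such a target, so a working pathway renews its own inhibitor, and constant NFkB activity is a known trait of Hodgkin/Reed-Sternberg cells, the malignant cells of HL.

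Expression levels are on the log2 scale, and a gene is represented by the brightest of its probe sets on average. A level counts as above background when it exceeds a limit set by 107 probe sets of olfactory receptor genes, their 95th percentile on the same array. That limit lay between 4.49 and 4.86 in 6 lines and at 5.59 in L-1236, which had 8609 genes above background against 10554 to 11636 in the others. U-HO1 stood apart by an 18S ribosomal RNA level of 11.12, against at most 7.06 elsewhere, and by an ACTB 3′ signal that exceeded the 5′ signal by 2.11, against at most 0.54 elsewhere. PRF1 and CD247, genes of cytotoxic and T-cells, reached 9.81 to 11.34 in HDLM-2 and L-540 and no more than 6.19 in any other line. Not all such genes did: CD3D was at 8.89 in KM-H2, 4.36 in HDLM-2 and 4.65 in L-540. Of 19 measured T- and NK-cell markers, 7 were above background in HDLM-2 and 10 in L-540, against 3 to 6 in the other lines. The B-cell antigen gene MS4A1 (CD20) was below background in all 7 lines, B-cell-derived ones included. The HRS marker TNFRSF8 (CD30) was above background in every line except SUP-HD1, at 7.25 in KM-H2 and 8.64 in L-428.

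The promoter of NFKBIA is shown because the gene is itself a target of the pathway. That of EBI3 is shown for comparison because EBI3 is among the target genes that set the pair apart below. Both are the 250 bases before the gene start in RefSeq (GRCh38.p14), chr14:35404750-35404999 on the minus strand and chr19:4229273-4229522 on the plus strand, written 5′ to 3′ with matches to the kappa B consensus in capitals:
NFKBIA: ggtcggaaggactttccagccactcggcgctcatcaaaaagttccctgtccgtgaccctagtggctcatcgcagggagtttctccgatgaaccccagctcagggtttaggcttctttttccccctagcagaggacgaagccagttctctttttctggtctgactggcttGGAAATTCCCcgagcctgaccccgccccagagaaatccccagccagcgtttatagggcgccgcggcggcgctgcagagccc
EBI3: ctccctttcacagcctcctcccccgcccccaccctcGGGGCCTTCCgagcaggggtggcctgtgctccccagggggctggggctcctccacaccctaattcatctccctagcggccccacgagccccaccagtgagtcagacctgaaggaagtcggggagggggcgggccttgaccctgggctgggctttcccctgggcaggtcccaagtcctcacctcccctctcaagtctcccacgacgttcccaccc
Each holds 1 match, which begins 81 bases before the start of NFKBIA and 214 bases before that of EBI3. EBI3 does not stand for all the targets higher in both lines. Of these, 6 had a promoter and 3 held a match, and the promoter of BCL2A1 held 0. The consensus was searched on both strands in all promoters of this length, and 3498 of 35116 (9.96%) hold a match. A match describes the letters only and is no measurement of binding.

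NFKBIA transcripts were abundant in both mutant lines and their level did not set the pair apart. NFKBIA (201502_s_at) stood at 11.61 in KM-H2 and 10.91 in L-428, against 10.75 in HDLM-2, 10.03 in L-1236, 11.77 in L-540, 12.32 in SUP-HD1 and 10.64 in U-HO1. SUP-HD1 and L-540 were above KM-H2, and the groups overlapped. The difference of group means was 0.16 (SE 0.63 in limma, exact permutation test over the 21 choices of 2 lines, two-sided, p = 0.857, n = 2 and 5). With these group sizes the smallest p that test allows is 0.0952, so it cannot reach 0.05. A second NFKBIA probe set was below background in all 7 lines. Which stretch of the mutated transcripts the probes read was not determined, so this level checks nothing about the mutation.

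All 5 genes for NFkB subunits had higher means in the pair, by 0.27 to 1.72, as did 48.5% of all genes. Of the 5, only NFKB2 had both lines above the other 5 lines, beside 4.05% of all genes. NFKB2, the precursor of p52 in the alternative pathway, stood at 9.19 in KM-H2 and 8.60 in L-428, against 8.49, 7.79, 8.04, 8.19 and 6.75 in HDLM-2, L-1236, L-540, SUP-HD1 and U-HO1. Its groups did not overlap, but the gap between L-428 and HDLM-2 was only 0.11. The difference was 1.04 (exact permutation p = 0.0952, the smallest possible, and 0.635 after Benjamini-Hochberg adjustment over the 10 subunit and IkB genes tested), and limma gave an SE of 0.49 and an adjusted p of 0.999. At 2 of the 3 NFKB2 probe sets both lines were above the rest, and the third was below background everywhere.

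REL, the subunit c-Rel known for gains in HL, measured 9.70 in KM-H2 and 9.41 in L-428, against 6.23 in HDLM-2, 8.36 in L-1236, 6.72 in L-540, 7.25 in SUP-HD1 and 10.60 in U-HO1. The pair was above 4 of the other lines, and U-HO1 was the highest of all. At the 5 REL probe sets the difference ran from 0.94 to 2.70, and at 2 of them, 1 of which was above background in a single line, both lines were above all the others. The difference of 1.72 did not pass the exact permutation test (p = 0.286, n = 2 and 5). NFKB1, which encodes p105 and p50, was highest in KM-H2 at 9.45, whereas L-428 at 8.24 fell among the others (7.69 to 8.77). RELB, the partner of p52, likewise was highest in KM-H2 at 7.62, with L-428 at 6.33. RELA (p65) overlapped, at 7.43 and 7.38 in the pair and 6.41 to 8.14 in the rest. Among the subunits, KM-H2 thus lay above every line outside the pair for NFKB1, NFKB2 and RELB, and L-428 only for NFKB2.

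**Figure D1:**
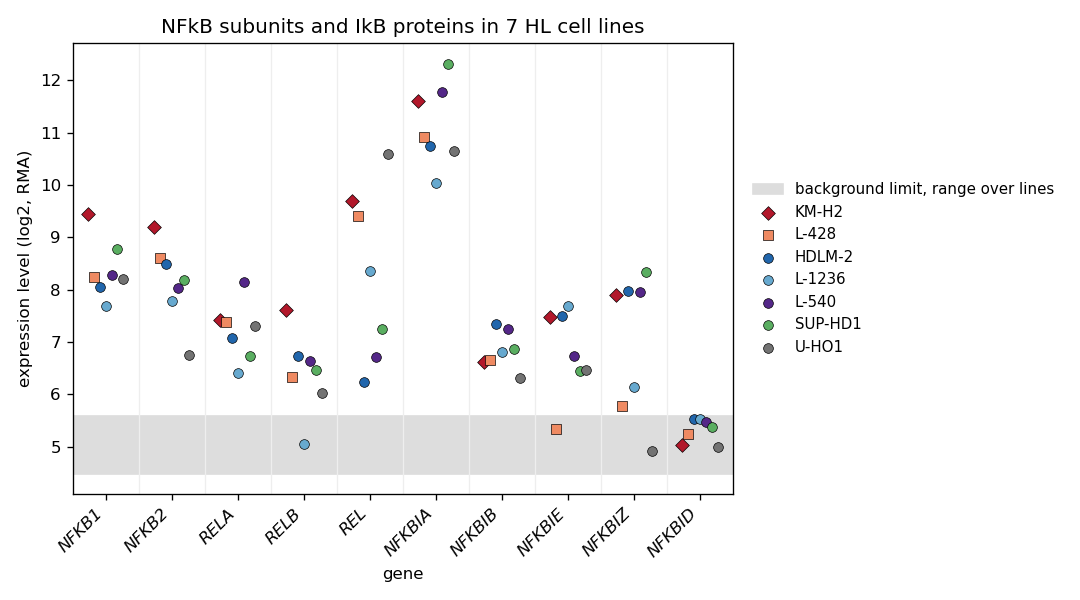
Expression level (log2, RMA) of the 5 NFkB subunit genes and the 5 measured IkB genes in each of 7 HL cell lines; each point is 1 array, with KM-H2 as a diamond, L-428 as a square and the grey band giving the range of the background limits. NFKB2 is the one gene here at which both points of the pair lie above the other 5, by 0.11.

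None of the other measured inhibitors separated the groups over all 7 lines, and BCL3 was not measured. NFKBIB, NFKBIE, NFKBIZ and NFKBID had means lower in the pair by 0.23 to 0.56, all within overlapping ranges, and their exact permutation p-values ran from 0.286 to 0.762 (n = 2 and 5). NFKBIE (IkBε) measured 7.47 in KM-H2 and 5.33 in L-428, the lowest value of the 7 lines, against 6.44 to 7.68 in the rest. NFKBIZ, a nuclear IkB, also differed within the pair, at 7.89 in KM-H2 and 5.78 in L-428. At the 3 NFKBIB probe sets the difference ran from -0.65 to 0.48. Without U-HO1, 2 of the 5 measured IkB genes had both lines below the rest (6.13% of all genes). Without L-1236 and U-HO1 it was 3 of 5 (10.5% of all genes). Leaving out any other single line outside the pair separated none.

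Genes upstream of IkBα had no separated member at their brightest probe sets. Both lines were above the rest at 1 of 4 MAP3K7 probe sets and 1 of 2 RIPK2 probe sets. Of 15 measured genes of the IKK complex and its upstream kinases, 14 were above background in at least 1 line and 12 had higher means in the pair, with a median difference of 0.33, while 48.5% of all genes had a higher mean there. That median moved with the lines: it was 0.075 without L-1236, 0.16 without L-1236 and U-HO1, and 0.50 without SUP-HD1. CHUK, a catalytic subunit of IKK, measured 8.25 in KM-H2 and 7.05 in L-428, against 5.85 to 8.05 in the rest. IKBKB, the other catalytic subunit, was at 6.94 in KM-H2 within a range of 5.17 to 7.53 in the rest. The 9 measured genes of IkB ubiquitination and degradation gave a median difference of 0.13, again with no separated member at the brightest probe sets. The median was -0.11 without L-1236 and 0.33 without HDLM-2. Of the 5 BTRC probe sets in this list, 1 had both lines above the rest.

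Among 17 measured TRAF adaptors and restraints of NFkB, TRAF5 was lower and PDLIM2 higher in both lines. Over all genes, both lines were below the other 5 at 4.13% and above them at 4.05%. TRAF5, an adaptor of TNF receptor family members, was at 2.91 in KM-H2 and 5.41 in L-428, against 8.41 in HDLM-2, 7.46 in L-1236, 7.69 in L-540, 7.46 in SUP-HD1 and 8.16 in U-HO1. KM-H2 was below background and L-428 was 2.05 under the lowest other line, so the pair was at least 6.54-fold lower with values raised to background (limma adjusted p = 0.609 as deposited). PDLIM2, a ubiquitin ligase of nuclear p65, measured 5.95 in KM-H2 and 7.23 in L-428, while all 5 other lines were at 3.05 to 4.37, below background. A second probe set of each of these genes was below background in every line.

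The better known restraints TNFAIP3 (A20), TRAF3 and CYLD did not separate the groups. TNFAIP3 measured 9.54 in KM-H2 and 12.16 in L-428, the highest value of the 7, against 8.57 to 10.79 in the rest. CYLD, a deubiquitinase, measured 5.38 in KM-H2, the lowest value of the 7, and 8.49 in L-428, against 7.65 to 9.04. TRAF3 was highest in KM-H2 at 9.12 and was below background in U-HO1 at 2.87. For these 3 genes the extremes thus came from single lines, and the pair did not move together.

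Among target genes of NFkB, the chemokine gene CCL5, the survival genes BCL2A1 and TNFAIP8 and the activation genes EBI3 and CD83 had both lines above the other 5, without any member passing limma. Over all 19775 genes, both lines were above the other 5 at 801 (4.05%) and below them at 816 (4.13%). Of 71 measured target genes in 3 lists (survival, chemokine and cytokine, surface and signalling), 7 were above (9.86%) and 2 below (2.82%), and 62 overlapped. The means were higher in the pair for 46 and lower for 25, and the median difference was 0.44 against -0.02 over all genes. The medians of the lists moved with the lines and with background: the chemokine and cytokine median of 0.33 was -0.01 with values raised to background, 0.01 without L-540, 0.05 without L-428 and 0.63 without SUP-HD1, and the surface and signalling median of 0.46 was 0.10 without KM-H2, 0.24 without L-428, 0.25 without L-1236 and 0.17 without L-1236 and U-HO1. The survival median of 0.46 was 0.22 without SUP-HD1 and 0.28 without L-1236. These lists were drawn up with earlier results of the same arrays known, so their counts are a description.

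CCL5 (RANTES), a chemokine that attracts T-cells, showed the widest separation among the targets. It measured 12.08 in KM-H2 and 11.57 in L-428, against 6.40 in HDLM-2, 7.50 in L-1236, 8.09 in L-540, 7.94 in SUP-HD1 and 7.27 in U-HO1. Both lines were at least 3.48 above every other line, and all 3 CCL5 probe sets separated the groups with differences of 4.39 to 4.78. At the first of these the difference of 4.39 (SE 0.48, 20.9-fold) had a limma adjusted p of 0.11, which misses the 0.05 threshold.

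BCL2A1 (A1/BFL1), an anti-apoptotic BCL2 relative, measured 11.24 in KM-H2 and 9.59 in L-428, against 5.04 in HDLM-2, 7.06 in L-1236, 4.65 in L-540, 6.22 in SUP-HD1 and 8.93 in U-HO1. U-HO1 came within 0.66 of L-428, and the difference of 4.04 (SE 1.13) had a limma adjusted p of 0.999. EBI3, the shared beta subunit of IL-27 and IL-35, measured 11.38 and 9.48 in KM-H2 and L-428, against 9.20, 6.25, 8.95, 7.66 and 4.93 in the order above. HDLM-2 and L-540 lay just under L-428, and the gap was 0.28. CD83, a maturation marker of antigen-presenting cells, measured 11.64 and 9.79, against 8.65, 5.95, 7.63, 8.34 and 9.28, with a gap of 0.51. In these 3 genes KM-H2 was far above the rest and L-428 stood close to the next line.

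TNFAIP8, an inhibitor of caspase-8-mediated death, measured 10.85 in KM-H2 and 9.62 in L-428, against 9.16 in HDLM-2, 6.64 in L-1236, 8.71 in L-540, 5.64 in SUP-HD1 and 8.65 in U-HO1. Of its 3 probe sets 2 separated the groups. CXCL8 (interleukin-8) was high in every line, with 10.79 and 10.94 in the pair over 9.55 to 10.58 in the rest, and its second probe set overlapped. CCL20, the ligand of CCR6, was above background in KM-H2 alone, at 9.72, so the separation at L-428 (3.90 against at most 2.97) lies among background values. LTB (lymphotoxin-β) was at 4.73 and 4.71 in the pair and highest in HDLM-2 at 9.79, the other 4 lines ranging from 5.36 to 5.59. IL1B was close to background throughout, at 4.31 to 5.33 in the 7 lines.

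**Figure D2:**
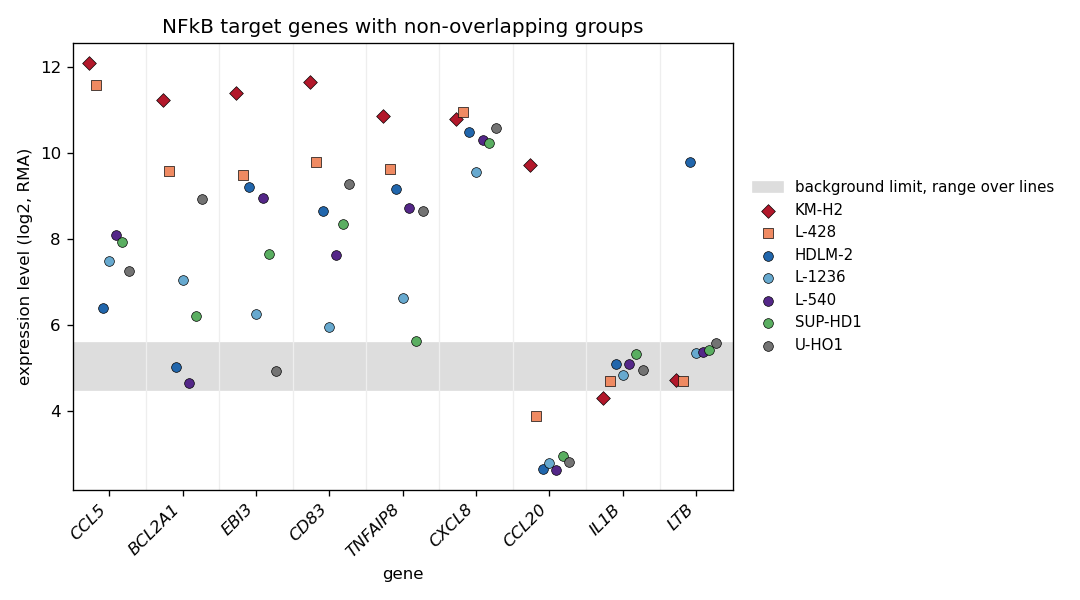
Expression level (log2, RMA) of the 9 NFkB target genes whose groups did not overlap, in each of 7 HL cell lines; each point is 1 array, with KM-H2 as a diamond, L-428 as a square and the grey band giving the range of the background limits. CCL5 leaves the widest gap (3.48), whereas at LTB and IL1B the pair lies lowest and near background.

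Other target genes differed widely between lines without following the pair. CD274 (PD-L1) measured 6.04 in KM-H2 and 6.48 in L-428, against 11.28 in HDLM-2, 8.36 in L-1236, 8.49 in L-540, 11.52 in SUP-HD1 and 5.79 in U-HO1. The pair was below 4 lines, and U-HO1 was lowest of all. CD44, an adhesion receptor, was at 9.13 and 8.63 in the pair but higher still in HDLM-2 and L-1236. Of the 54 measured target genes with a RefSeq promoter, 24 (44.4%) held a kappa B match in the 250 bases before a start. Among the 15384 measured genes with a promoter the share was 14.4%. Because the lists hold genes known as NFkB targets, this comparison describes the lists and not the lines. Of the 7 targets higher in both lines, 6 had a promoter and 3 of these (CCL20, CD83 and EBI3) held a match.

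Beyond the pathway, 8 of 54613 probe sets (0.0146%) passed the limma test at an adjusted p below 0.05, and all were higher in the pair. None was lower in this fit, although 696 of the 1940 probe sets at an unadjusted p below 0.05 were. The calls belonged to PRAC1, NRIP1, DAPK1, ST8SIA1, ELMOD1, CD24 (2 probe sets) and 1 probe set without a gene symbol (1559697_a_at). At each of them KM-H2 and L-428 were above background and the other 5 lines below it, so folds are lower bounds, computed with values below background raised to that limit, while the adjusted p beside each is from the values as deposited. Fitted on the raised values, 4 of the 8 still passed (PRAC1, NRIP1, DAPK1 and the probe set without a symbol). That fit called 19 probe sets, 14 higher and 5 lower in the pair. The count rested on the choice of lines: without HDLM-2, L-540, SUP-HD1 or U-HO1 no probe set passed, without L-1236 3 passed, without KM-H2 35 and without L-428 256. Of the 3 calls without L-1236, 2 were higher in the pair, both among the 8 calls, and 1 was lower. The differences themselves moved little in the first 5 of these leave-out fits, from 4.24 to 4.37 for DAPK1 and from 6.18 to 6.30 for PRAC1. Without KM-H2 or L-428 the pair is a lone line that is assumed to vary like the other 5, which then give all the spread.

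PRAC1, a small nuclear protein gene next to the HOXB cluster, had the largest difference of the 8 calls, at 8.08 in KM-H2 and 10.14 in L-428 against 2.74, 3.06, 2.58, 2.97 and 2.97 in HDLM-2, L-1236, L-540, SUP-HD1 and U-HO1. It was at least 19.7-fold higher (limma difference 6.25, SE 0.52, adjusted p = 0.0381). ST8SIA1, the sialyltransferase that makes ganglioside GD3, measured 7.01 and 6.83 against 2.67, 3.46, 2.72, 2.81 and 3.10, and was at least 4.33-fold higher (limma adjusted p = 0.0381, or 0.157 on the raised values). Its second probe set also separated the groups. In both genes the 5 other lines formed a tight cluster near the floor of the array.

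CD24, a glycoprotein of immature B-cells, was higher in both lines at all 6 of its probe sets. At 208651_x_at it measured 7.40 in KM-H2 and 7.24 in L-428, against 3.05 in HDLM-2, 3.10 in L-1236, 2.52 in L-540, 3.55 in SUP-HD1 and 2.42 in U-HO1 (at least 5.71-fold, limma adjusted p = 0.0381, or 0.056 on the raised values). The probe sets differed by 2.84 to 5.35 between the groups, and 2 of the 6 passed the threshold as deposited and neither of these on the raised values. All 6 carry a suffix (_s_at or _x_at) of probe sets that may also read other transcripts.

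DAPK1 and NRIP1 passed at 1 probe set each, and a second one gave another picture of U-HO1. DAPK1, death-associated protein kinase, measured 7.57 in KM-H2 and 7.40 in L-428 against 2.88 to 3.39 at 211214_s_at (at least 6.4-fold, limma adjusted p = 0.0222). At 203139_at the pair was at 9.26 and 9.46 and U-HO1 at 8.57, above L-1236 at 5.56 and the remaining 3 at 3.06 to 3.48. NRIP1, a corepressor of nuclear receptors, measured 7.06 and 7.98 against 2.61 to 3.59 at 202600_s_at (at least 6.56-fold, limma adjusted p = 0.0381). At 202599_s_at U-HO1 reached 7.13, close to 7.49 in KM-H2 and 7.59 in L-428. For both genes, then, the pair and U-HO1 were high at 1 probe set and the pair alone at the other. U-HO1 is also the line with the raised ACTB 3′ over 5′ signal, and the part of that in these values was not tested. ELMOD1, which acts on ARF-family GTPases, was the weakest call, at 6.13 and 5.81 against 2.77 to 3.15 (at least 2.24-fold, limma adjusted p = 0.0418). On the raised values its adjusted p was 0.994, after a filter on dim probe sets it was 0.101, and its second probe set was below background in every line.

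**Figure D3:**
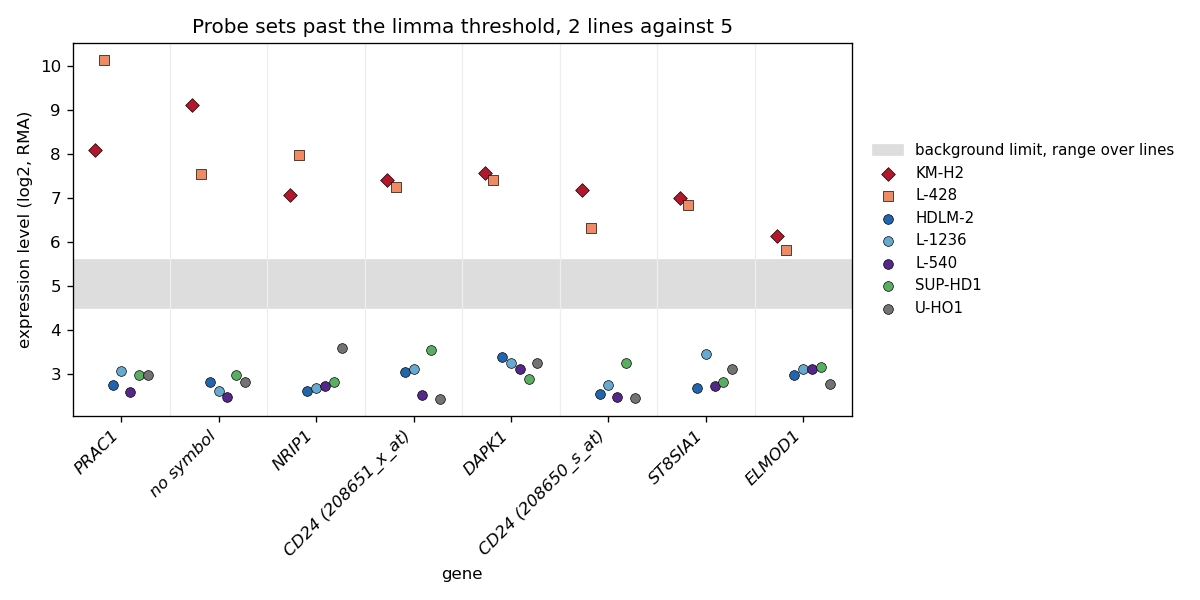
Expression level (log2, RMA) at the 8 probe sets with a limma adjusted p below 0.05, in each of 7 HL cell lines; each point is 1 array, with KM-H2 as a diamond, L-428 as a square and the grey band giving the range of the background limits. At every one of them the pair lies above the band and the other 5 lines below it.

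The gap between the pair and the nearest other line was widest upward for HLA-DQA1 (4.01), CCL5 (3.48), PRAC1 (2.49) and CD24 (2.48) once values below background were raised to that limit, among the 10 genes with the widest gaps as deposited. The gaps as deposited were 5.02 for PRAC1 and 3.37 for ST8SIA1 (1.24 raised), but their nearest lines lay below background, where levels carry no order. PHACTR3, a regulator of protein phosphatase and actin, measured 5.99 in KM-H2 and 9.06 in L-428 against at most 3.06. PDGFRL, a PDGF receptor-like protein, measured 7.48 and 7.77 against 3.11 to 4.71 (limma adjusted p = 0.116). The antisense transcript HECW2-AS1 (5.38 and 7.63), the lipid phosphatase gene INPP4B (5.56 and 7.43) and LRRN3 (6.39 and 10.24) followed. In the other 5 lines none of these was above background. In all 5 genes from PHACTR3 to LRRN3 the higher line of the pair was L-428.

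The widest downward gaps belonged to TMEM273, CLU and ZBTB38. TMEM273, a membrane protein gene, measured 4.46 in KM-H2 and 5.81 in L-428, against 9.57 in HDLM-2, 9.59 in L-1236, 8.52 in L-540, 8.35 in SUP-HD1 and 9.51 in U-HO1. KM-H2 was below background there, so the pair was at least 13.8-fold lower (limma adjusted p = 0.271), and its second probe set overlapped. CLU (clusterin), an extracellular chaperone, measured 5.95 and 6.37 against 10.13, 8.86, 9.01, 10.77 and 9.27, a 10.9-fold difference (limma adjusted p = 0.49), with 3 of 4 probe sets separated. ZBTB38, which binds methylated DNA, measured 6.24 and 5.06 against 8.48 to 9.75, although only 2 of its 5 probe sets separated the groups. Each of these genes was above background in all 5 other lines, as the rule that picked them required.

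VAMP5, TRAF5, FBXO32, SH3YL1, LINC01943, CPT1A and POMZP3 completed the downward list, with gaps from 2.05 to 1.36 as deposited. At VAMP5, SH3YL1 and POMZP3 both lines of the pair were below background, so their gaps are smaller with values raised to that limit. On raised values the pair was at least 6.71-fold, 4.89-fold and 3.45-fold lower at these genes. FBXO32 (atrogin-1), a ubiquitin ligase subunit, was lower in both lines at 6 of 7 probe sets, and measured 5.14 in KM-H2 and 6.18 in L-428 against 8.11 to 10.56. CPT1A, which admits fatty acids to mitochondria, measured 3.63 and 5.33 against 6.73 to 7.92, with 3 of 4 probe sets separated. None of these downward genes passed limma on the values as deposited.

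Set against the other choices of 2 lines, the pair was not distinguished by how many genes it shared. Among the 21 choices KM-H2 with L-428 had the 17th highest number of genes above the rest (801, range 668 to 1303) and the 13th highest number below (816, range 569 to 1403). With a gap of at least 1, which left 43 genes above and 24 below, it was the 10th and the 12th. The arrays of the pair correlated at a Pearson r of 0.874 over probe sets, the 7th of the 21 choices, a description of arrays that share most of their features. The 4 highest numbers above the rest all came from choices with L-1236, the line with the highest background limit.

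**Figure D4:**
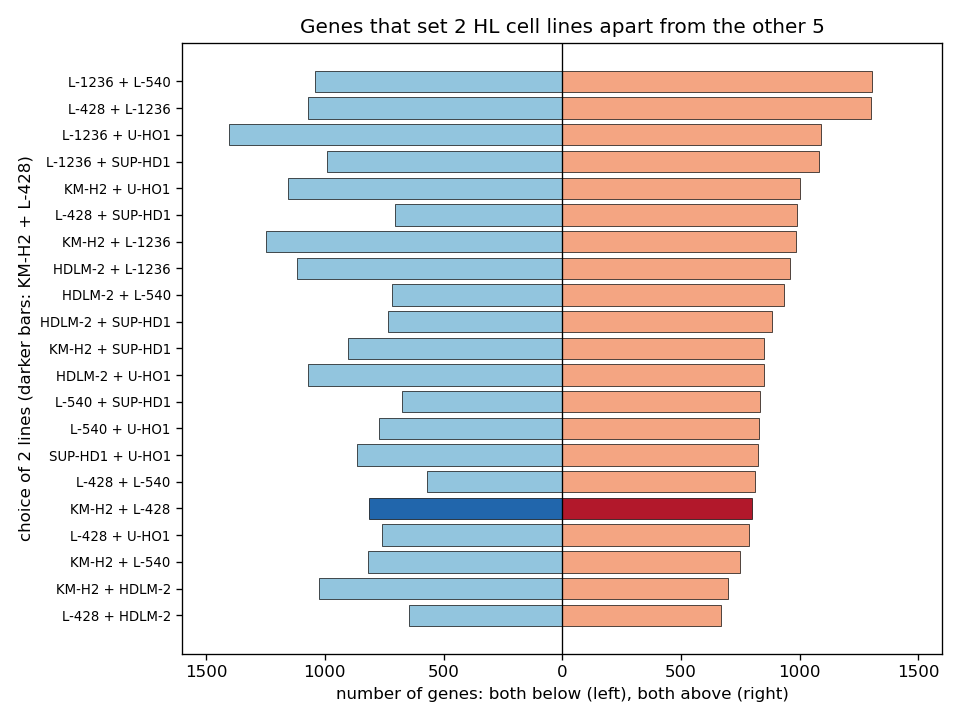
Number of genes at which both lines of a pair lie above (right) or below (left) the other 5, for each of the 21 choices of 2 HL cell lines, ordered by the number above. The darker bars mark KM-H2 with L-428, at 801 above and 816 below, in the lower part of the order.

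KM-H2 and L-428 also differed widely from each other at single genes. The median absolute difference between them was 0.50 over all genes, and for the 21 choices of 2 lines it ran from 0.45 to 0.78. KM-H2 was at least 2 above L-428 at 806 genes and at least 2 below it at 629, counting genes with the higher line above background. MMP12, a macrophage elastase, measured 11.70 in KM-H2 and 2.76 in L-428, and MAGEA4, a cancer-testis antigen, 11.41 and 2.70. PLS3 and YBX3 followed at 11.14 against 2.64 and 10.56 against 2.82. In the reverse direction PERP, an epithelial junction protein, measured 2.91 in KM-H2 and 11.90 in L-428. CYP4Z1 (2.76 and 11.17), SNX7 (2.76 and 11.09) came next, and TFPI2 was below background in KM-H2 and at 11.00 in L-428.

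MHC class II genes, which present antigen on B-cells, had higher means in the pair at 12 of 12 members, with a median difference of 1.29 against -0.02 over all genes. Only HLA-DQA1 had both lines above all other 5, beside 4.05% of all genes. A higher mean in the pair held for 48.5% of all genes. The 12 of 12 holds at the brightest probe sets. Over all probe sets the difference ran from -2.99 to 3.72 for HLA-DQB1. It went down to -0.33 for CD74, -0.32 for HLA-DOA and -0.15 for CIITA. With the most variable probe set or the mean of all, no member was separated, and the medians were 1.28 and 1.04. HLA-DRA, the alpha chain of HLA-DR, measured 12.95 in KM-H2 and 12.56 in L-428, against 13.41 in HDLM-2, 7.18 in L-1236, 10.82 in L-540, 12.04 in SUP-HD1 and 11.79 in U-HO1. HDLM-2 was the highest line and L-1236 by far the lowest, a pattern shared by 7 further members, HLA-DRB1, HLA-DPB1, HLA-DMA, HLA-DMB, HLA-DOA, HLA-DQB1 and HLA-DPA1, except that SUP-HD1 was lowest for HLA-DPA1. Without HDLM-2, 8 of the 12 had both lines above the rest (5.35% of all genes), and in the B-cell-derived lines alone 9 of 12 (8.63% of all genes), with a median difference of 1.91. Without L-1236 the median was 0.80, and without L-1236 and U-HO1 it was 0.62 with 1 member separated.

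HLA-DQA1 depended on the probe set. At 203290_at it measured 11.69 in KM-H2 and 11.97 in L-428, against 6.19 in HDLM-2, 4.74 in L-1236, 7.68 in L-540, 4.79 in SUP-HD1 and 4.46 in U-HO1 (limma adjusted p = 0.271). At 213831_at the pair was below background, at 4.15 and 3.82, while HDLM-2 reached 13.01 and SUP-HD1 10.94. The groups were therefore ordered in opposite ways at probe sets of the same gene, with differences from -3.22 to 6.26. HLA-DQ genes are highly polymorphic, and the part of that in these values was not tested. CIITA, the master activator of class II genes, measured 7.37 and 5.52, with U-HO1 at 6.25 above L-428.

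**Figure D5:**
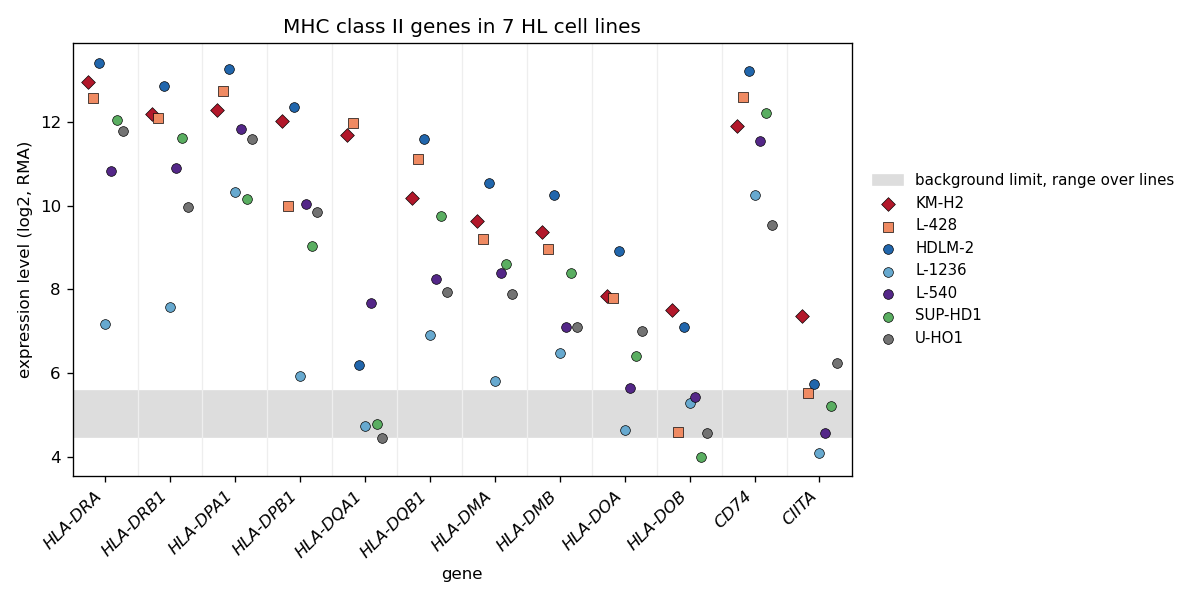
Expression level (log2, RMA) of 12 MHC class II genes in each of 7 HL cell lines; each point is 1 array, with KM-H2 as a diamond, L-428 as a square and the grey band giving the range of the background limits. The pair lies above most other lines but under HDLM-2 at most genes, and only HLA-DQA1 has both points above all other 5.

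Markers of cell identity gave no common direction for the pair. Of 19 measured B-cell markers CR2 and VPREB3 were above and PAX5 below in both lines, and the median difference was 0.27. Over all genes, 4.05% were above and 4.13% below in both lines. PAX5, the B-cell commitment factor, measured 4.86 in KM-H2 and 4.60 in L-428, near or below background, against 5.74 in HDLM-2, 7.81 in L-1236, 5.68 in L-540, 7.80 in SUP-HD1 and 8.18 in U-HO1. The T-cell-derived lines lay between the pair and the 3 other B-cell-derived lines, and a second PAX5 probe set overlapped. CR2 (CD21) was high in KM-H2 alone, at 10.98, with L-428 at 4.92, and VPREB3 was below background in all lines. Among 19 T- and NK-cell markers the one separated member, TRAT1, was below background everywhere, and CD3D reached 8.89 in KM-H2 but 4.60 in L-428. Of 13 myeloid markers CEBPA alone was separated, at 3.73 and 3.58 against 3.99 to 6.42, with only HDLM-2 and U-HO1 above background.

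FSCN1 (fascin), an actin-bundling protein used as an HRS marker, was the one member of 12 HRS markers with both lines above the rest. Over all genes, 4.05% had both lines above the rest. It measured 10.61 in KM-H2 and 12.10 in L-428, against 8.31 in HDLM-2, 10.01 in L-1236, 8.73 in L-540, 9.46 in SUP-HD1 and 5.72 in U-HO1. Both FSCN1 probe sets separated the groups, while the difference of 2.91 (SE 1.09) had a limma adjusted p of 0.999. The median difference over the 12 markers was -0.03.

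Cell cycle genes had higher means in the pair at 23 of 26 members, beside 48.5% of all genes, with a median difference of 0.32, and CDK4, MCM7 and CCNB2 had both lines above the rest, beside 4.05% of all genes. CDK4, the kinase of the D cyclins, measured 10.72 in KM-H2 and 10.89 in L-428, against 9.89 in HDLM-2, 9.66 in L-1236, 9.59 in L-540, 10.28 in SUP-HD1 and 9.45 in U-HO1. The difference of 1.03 (SE 0.31) was small but held in both lines, and limma gave an adjusted p of 0.999. The median of the list turned to -0.22 without L-428 and was 0.64 without KM-H2, 0.17 without L-1236 and 0.07 without L-1236 and U-HO1.

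Of 22 measured JAK-STAT genes TYK2 was above and PIM2 below in both lines, beside 4.05% and 4.13% of all genes, with a median difference of -0.06. SOCS3, a feedback inhibitor of STAT3, measured 4.38 in KM-H2 and 5.52 in L-428, against 9.32 in HDLM-2, 5.11 in L-1236, 10.63 in L-540, 9.59 in SUP-HD1 and 8.45 in U-HO1. L-1236 fell between the mutant lines. IL2RA (CD25) measured 5.56 and 3.96, with HDLM-2, L-540 and SUP-HD1 at 9.80 to 11.35 and L-1236 and U-HO1 as low as the pair. No member was separated among 12 AP-1 factors (median difference -0.25), 19 TNF receptors and ligands (0.13), 11 MHC class I genes (0.16) or 26 interferon-stimulated genes (-0.09). Of 11 housekeeping genes PGK1 was above in both lines, beside 4.05% of all genes, and the median difference of the 11 was 0.06.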

How the data were processed

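Total RNA of 7 HL cell lines was profiled on HG U133 Plus 2.0 arrays (Affymetrix), 1 array per line. The authors corrected background and quantile-normalized the arrays by RMA and deposited log2 expression levels (1.99 to 14.17) for 54675 probe sets; their processing notes name affy and limma. RMA shares its scaling across the arrays, and the depth of an array is not a count, so the number of arrays limits the precision. The 62 control probe sets were left out, which left 54613. Probe sets with 1 gene symbol in the platform annotation (41097, of which 41043 were updated through gene IDs) gave 19775 genes, each represented by the probe set with the highest mean; 1801 probe sets with several symbols and 11777 without one were tested but not named.

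Groups followed the line names in the labels, and the mutation came from knowledge of the lines. The comparison, its lists and its tests were chosen with earlier results of these data known. Group means (2 against 5 lines) were compared in limma 3.58.1 (R 4.3.3, lmFit and eBayes, two-sided, Benjamini-Hochberg over all probe sets, threshold 0.05), which was tested on simulated data, and 10 genes by exact permutation tests (scipy 1.17.1). The simulated noise was independent and normal, without a background floor, so that run cannot vouch for calls whose other lines lie below background. Named genes were all measured NFkB subunits and IkB genes, up to 4 members per further list with the largest differences, the 10 widest gaps in each direction among genes whose higher lines were above background, and the 4 largest differences in each direction within the pair; immunoglobulin and T-cell receptor segments and sex-specific genes were left out of the rules on gaps and on the pair. Other list members were named after their values were seen, as were the genes of the limma calls. Alternatives left out each line, the T-cell-derived lines or L-1236 with U-HO1, rescaled the arrays, raised values to background, filtered dim probe sets, changed the probe set rule or the limma settings, and ran the methods' t-test.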

Additional observations from a re-analysis of the deposited data

Results flagged for a closer look

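Within the 5 lines outside the pair, 9 of 106 gene levels examined had 1 line far from the other 4. Chance alone flags about 1 group in 20, but most of these genes were picked by their differences. That rate is therefore no baseline for them. Among pathway genes, NFKBID was lowest in U-HO1 at 5.0 (next line 5.38), BIRC2, the inhibitor of apoptosis cIAP1, was lowest in SUP-HD1 at 2.58 (next 8.51), and TNFRSF11A (RANK) was lowest in L-540 at 7.89 (next 9.36). FCGR2A, an Fc receptor gene, was highest in L-1236 at 6.53 (next 3.98), and INPP4B, one of the genes above the rest in the pair, was highest among the 5 in L-1236 at 3.66 (next 2.74), which is below the background limit of that line. MMP12 was highest in HDLM-2 at 5.15 (next 3.11). In U-HO1, MAGEA4 reached 10.74 (next 3.38), PLS3 7.43 (next 2.92) and TFPI2 6.40 (next 3.43). MAGEA4 and PLS3 were therefore high in KM-H2 and U-HO1, and TFPI2 in L-428 and U-HO1. For FCGR2A, INPP4B, MMP12, MAGEA4, PLS3 and TFPI2 the next line was below background.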

How the results depend on the processing

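The number of limma calls (8) was 8 or 9 after another scaling, a filter on dim probe sets or array weights, 14 with an intensity trend and robust prior, 19 with values raised to background (4 of the 8 among them), and 0 with the methods' t-test (2004 at an unadjusted p below 0.05), in the B-cell-derived lines alone (1822 unadjusted) and without L-1236 and U-HO1 (2737 unadjusted). Leaving out 1 line at a time gave 0 to 256 calls (1442 to 2709 unadjusted), the highest without L-428, where all 8 calls were kept, against 4 of them without KM-H2. Genes with both lines above the rest (801) numbered 1707 in the B-cell-derived lines, 1867 without L-1236 and U-HO1, 503 with values raised to background, 354 with a difference of at least 1 and 1058 to 2870 when 1 line was left out. Genes with both lines below (816) numbered 1739, 2078, 373 and 231 in that order, 243 with the higher lines above background, and 1106 to 3421 when 1 line was left out. Fewer lines to exceed make such counts larger by construction. The NFKBIA difference (0.16) was -0.35 without L-1236 and U-HO1 and -0.19 to 0.51 when 1 line was left out. HLA-DQA1 turned to -3.22 when the most variable probe set stood for the gene, and the cause was not tested. Of 1571 values for the 106 named genes, 1531 kept their sign, as did 259 of 300 list medians. No paired analysis was possible because the 2 groups hold different cell lines, 1 array apiece, and nothing ties a line of one to a line of the other. Levels under the background limit carry no order, which bounds the folds of all 8 calls.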
